A study of Mus musculus with 11 samples.

Results

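The BCL2 family holds the proteins that decide whether the outer mitochondrial membrane is opened during apoptosis. For the present account 10 of its genes were listed by name (Bax, Bak1, Bcl2, Bcl2l1, Bcl2l11, Bbc3, Pmaip1, Mcl1, Bid and Bad), and every probe set carrying one of these symbols was taken, whatever its signal. That gave 29 probe sets of 9 genes, out of 34958 probe sets with a single gene symbol and 45101 on the array. Bax, one of the pore-forming members, had no probe set named for it, alone or with other genes, and was not analysed here. Of the 29 probe sets, 21 had a mean log2 signal above 6.87, the limit under which signals were taken as too dim to test, and 8 of the 9 genes had at least 1 such probe set.

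In this family the pro-survival proteins BCL2, BCL-XL (encoded by Bcl2l1) and MCL1 hold the pore formers BAX and BAK in check. BH3-only proteins such as BIM, PUMA, NOXA, BID and BAD sense stress, and either neutralise the pro-survival proteins or engage BAX and BAK directly. Cytochrome c then leaves the mitochondria and caspases are activated. In the pancreas the family has been studied mainly for its part in β-cell death, and much of its regulation lies in protein turnover, cleavage and phosphorylation, which RNA levels do not report.

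Total RNA of whole pancreas was measured on 11 Affymetrix arrays, each from a female Balb/C mouse aged 30 days. Their mothers ate a diet with 20% protein (control diet) or an isocaloric one with 8% protein (low protein diet) while pregnant, and all mothers ate the control diet from birth on. The young received daily injections on days 1 to 5 of life, either of streptozotocin (STZ, 35 mg per kg in citrate buffer), a toxin taken up by β cells, or of vehicle (sham). These factors give 4 groups: the control sham group and both low protein groups, sham and STZ, have arrays 1 to 3 (n = 3), and the control STZ group has arrays 1 and 3 (n = 2). The labels call the arrays of a group biological replicates and name no litter, so a litter effect and a diet effect cannot be told apart. A whole pancreas is mostly exocrine tissue with few islet cells, and in such bulk RNA fewer cells of a type and less RNA per cell cannot be told apart.

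Array medians lay between 7.92 and 7.97 on the log2 scale, and correlations between arrays were 0.9828 to 0.9946 within groups and 0.9778 to 0.9944 between groups. Control sham 1 and low protein STZ 1 stood at the ends of the first principal component, which carried 38.4% of the variance. The tissue label was borne out by acinar markers, whose mean level was 14.01 or higher on every array. Markers of β cells averaged 9.33 to 9.73 on control sham arrays and 8.53 to 9.04 on the others, with Slc2a2 and Slc30a8 at or under the signal limit. With 2 or 3 arrays in a group, their number sets the precision of each value.

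None of the 8 genes tested differed between groups at an adjusted p under 0.05 in any of 8 comparisons, and neither did any of the other genes on the array (0 of 15897, or 0.0%, with limma). The differences with the smallest p concerned diet and not STZ. Averaged over both injections, signals of Mcl1, Bad and Bcl2l1 were 1.26-fold, 1.16-fold and 1.11-fold lower in offspring of low protein dams, at unadjusted p of 0.0412, 0.0311 and 0.0417. An unadjusted p under 0.05 for diet was met in 15.3% of all genes, and in 11.7% with a lower signal. For Bad the direction turned under another scaling of the arrays (cyclic loess, 0.07). With that scaling none of these genes kept an unadjusted p under 0.05. For Bcl2l1 the log2 difference was -0.15 on the probe set used, but -0.03 with its probe sets averaged. After STZ no member reached an unadjusted p under 0.05 with the mean taken over both diets.

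The 250 bases before the most upstream transcription start listed in RefSeq (GRCm38.p6) are printed for Mcl1, Bcl2l1 and Bad, since these 3 genes had the smallest p for diet. Capitals mark GGGCGG or its complement CCGCCC, the core GC box. Mcl1 lies on chromosome 3 (chr3:95658471-95658720, plus strand), Bcl2l1 on chromosome 2 (chr2:152831729-152831978, minus strand) and Bad on chromosome 19 (chr19:6941611-6941860, plus strand).
Mcl1: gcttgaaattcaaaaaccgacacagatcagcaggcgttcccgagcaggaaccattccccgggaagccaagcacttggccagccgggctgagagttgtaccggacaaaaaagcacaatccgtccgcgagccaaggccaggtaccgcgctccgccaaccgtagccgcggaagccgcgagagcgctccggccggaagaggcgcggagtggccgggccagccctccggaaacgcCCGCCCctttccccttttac
Bcl2l1: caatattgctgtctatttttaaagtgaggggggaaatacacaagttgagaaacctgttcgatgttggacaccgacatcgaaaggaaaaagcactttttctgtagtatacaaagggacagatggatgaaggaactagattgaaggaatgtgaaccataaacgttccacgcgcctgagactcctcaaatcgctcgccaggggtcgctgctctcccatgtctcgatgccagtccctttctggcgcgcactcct
Bad: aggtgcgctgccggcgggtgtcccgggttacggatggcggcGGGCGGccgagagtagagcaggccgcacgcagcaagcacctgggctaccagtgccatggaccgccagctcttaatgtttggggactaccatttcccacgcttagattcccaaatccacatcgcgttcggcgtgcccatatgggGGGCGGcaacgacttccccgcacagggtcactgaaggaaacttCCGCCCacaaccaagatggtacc
The Mcl1 window held 1 such match, 20 bases before the start, the Bad window held 3, and the Bcl2l1 window held 0. GC content was 64.4% for Mcl1, 62.8% for Bad and 47.6% for Bcl2l1. Among the 9 listed genes with a window read (Bax included, Pmaip1 not), 7 held GGGCGG on either strand, against 32.7% of all 32851 windows of the same length. CCAAT was in 1 of the 9 windows against 33.8% of all, CACGTG in 1 against 6.02%, TATAAA in 0 against 12.4% and TGACGTCA in 0 against 1.55%, each searched on both strands. These counts and shares are not like for like. The 9 windows are 1 per gene, at the most upstream start, while the 32851 windows take in every start listed. Bcl2l1 has 3 starts and Bad 2 in the table, and the array does not tell which start a transcript used. A match is a run of letters and no evidence of binding.

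Mcl1 encodes a short-lived pro-survival protein that restrains BAK and BIM. Its probe set with the highest mean, 1416880_at, gave log2 signals of 11.11, 10.47 and 11.20 on the control sham arrays and 10.77 and 10.87 on the control STZ arrays. The same probe set gave 10.71, 10.39 and 10.71 on the low protein sham arrays and 10.38, 10.27 and 10.78 on the low protein STZ arrays. The groups overlapped because control sham 2 was low and low protein STZ 3 was high for their groups. Group means were 10.93 ± 0.40 (SD, n = 3), 10.82 ± 0.07 (n = 2), 10.61 ± 0.19 (n = 3) and 10.48 ± 0.27 (n = 3) in the order control sham, control STZ, low protein sham and low protein STZ. The diet difference over both injections was -0.33 ± 0.14 (SE; 95% confidence interval -0.65 to -0.02), with an adjusted p of 0.302. Without control sham 2 it was -0.45, with cyclic loess -0.18, and without control sham 1 and low protein STZ 1 together it was -0.26, in each case with an adjusted p above 0.05. Over the 11 arrays Mcl1 ran against the first principal component (r = -0.87, rho = -0.92, and r = -0.90 without the 2 arrays at its ends). For Bad these values were -0.75, -0.66 and -0.27, and for Bcl2l1 -0.44, -0.47 and -0.32. Without those arrays the diet differences of Bad and Bcl2l1 were -0.13 and -0.15.

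Mcl1 was the listed gene with the most probe sets, 6, and the mean diet difference was negative in each, from -0.33 to -0.43. On the 3 probe sets with the suffix x_at it was -0.17 to -0.23 without control STZ 3 and -0.62 to -0.66 without control STZ 1. The 6 probe sets read the same RNA samples and are not replicates of the diet. An unadjusted p under 0.05 was reached by 4 of them (0.0111 for 1437527_x_at, 0.0168 for 1456243_x_at, 0.0214 for 1456381_x_at and 0.0433 for 1416880_at), and adjusted p over the 27249 probe sets tested ran from 0.214 to 0.470. Of all 21 probe sets of the family, 7 had an unadjusted p under 0.05 in this comparison, against 13.4% of all probe sets tested.

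By suffix the 6 probe sets made sets of 3 that varied in part differently over the arrays. Among 1437527_x_at, 1456243_x_at and 1456381_x_at, whose suffix marks probes that can bind other transcripts too, Pearson's r over the 11 arrays was 0.96 to 0.99. Among 1416880_at, 1448503_at and 1416881_at it was 0.73 to 0.92, and between the sets 0.31 to 0.73. The sets were not cleanly apart. 1416880_at was as close to 1437527_x_at (0.73) as to 1416881_at of its own set (0.73), though closest to 1448503_at (0.92). These correlations share arrays and RNA, and are given as a description.

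The control STZ arrays show the split, most plainly between 1456381_x_at and 1416881_at. On 1456381_x_at control STZ 1 gave 9.69 and control STZ 3 gave 10.67, the lowest but one and the highest of all 11 arrays. On 1416881_at they gave 9.34 and 8.80, in the opposite order. The other probe sets without that suffix were less far apart on these arrays. Control STZ 1 and 3 gave 10.77 and 10.63 on 1448503_at, but 10.77 and 10.87 on 1416880_at, in the order of 1456381_x_at. On 1456381_x_at the control sham arrays gave 10.38, 10.34 and 10.49, and the low protein sham arrays gave 10.09, 9.90 and 9.76. All 3 low protein sham arrays thus lay below all 3 control sham arrays, as they did on the other probe sets with that suffix, an arrangement met in 9.68% of all probe sets tested. The sham difference was -0.49 ± 0.21 on 1456381_x_at and -0.43 ± 0.18 on 1437527_x_at (unadjusted p of 0.0381 and 0.0422, adjusted p of 0.494 and 0.506).

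**Figure D1:**
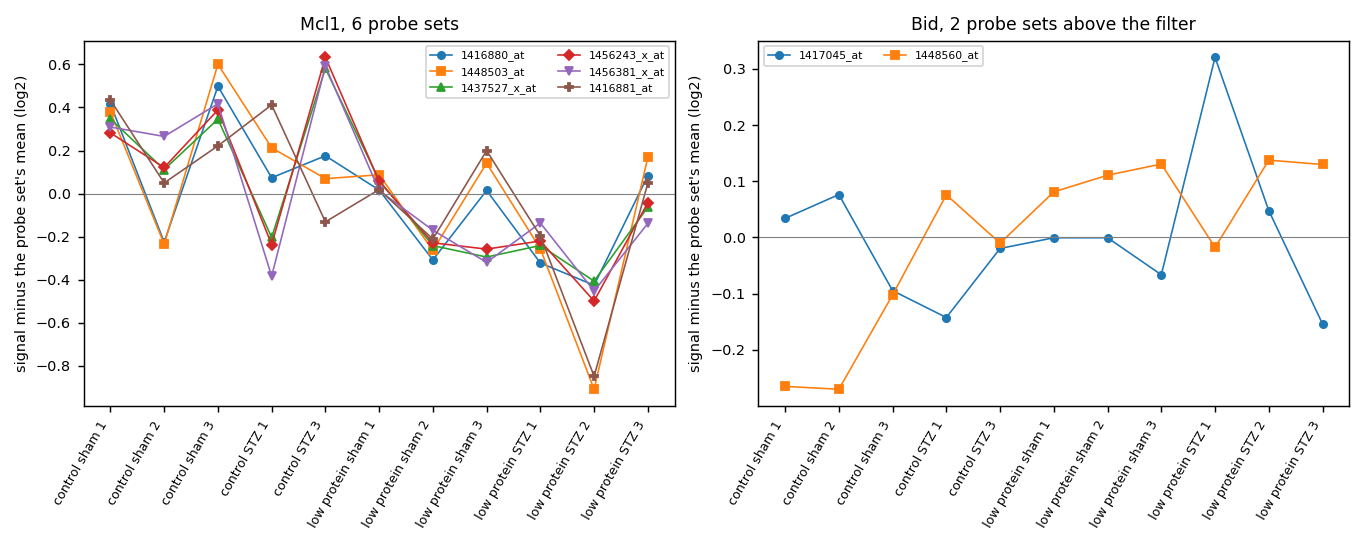
Log2 signal of each Mcl1 and Bid probe set above the signal limit, as the difference from that probe set's mean over 11 arrays (vertical axis), by array and group (horizontal axis); lines join the values of one probe set. For Mcl1 the 3 probe sets with the suffix x_at run together and part from the other 3 on the control STZ arrays, and for Bid the lines of both probe sets cross.

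Bcl2l1 encodes BCL-XL, a pro-survival protein made in many tissues. On its brightest probe set, 1420888_at, the control sham arrays gave 9.52, 9.49 and 9.47 and the control STZ arrays 9.42 and 9.76. The low protein sham arrays gave 9.42, 9.42 and 9.56 and the low protein STZ arrays 9.33, 9.25 and 9.35. All 3 low protein STZ arrays lay below all other arrays (as in 1.62% of all genes). In STZ-injected offspring the diet difference was -0.28 ± 0.10 (unadjusted p of 0.0163, adjusted p of 0.406), and it rested on control STZ 3, without which it was -0.12, while without control STZ 1 it was -0.45. Over both injections it was -0.15 ± 0.07 (interval -0.30 to -0.01, adjusted p of 0.303), -0.07 without control STZ 3 and -0.24 without control STZ 1.

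The other probe sets of Bcl2l1 did not follow 1420888_at. In the diet comparison over both injections 1420887_a_at differed by -0.06 ± 0.06 and 1426191_a_at by 0.10 ± 0.07, and with the probe sets averaged the gene's difference was -0.03. Pairwise correlations of the 3 over the arrays were 0.04 to 0.10. The fourth, 1426050_at, was under the signal limit.

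Bcl2, the founding member, encodes a pro-survival protein of the mitochondrial and endoplasmic reticulum membranes. On 1422938_at the control sham arrays gave 8.15, 8.35 and 8.25, the control STZ arrays 8.36 and 8.26, the low protein sham arrays 8.11, 8.35 and 8.33, and the low protein STZ arrays 8.17, 8.25 and 8.43. The ranges of all groups overlapped, and group means were 8.25 ± 0.10, 8.31 ± 0.07, 8.26 ± 0.13 and 8.28 ± 0.13. The diet difference over both injections was -0.01 ± 0.07 with an interval of -0.17 to 0.15, and the STZ difference over both diets was 0.04 ± 0.07 with an interval of -0.12 to 0.20. Of its 5 probe sets 3 were above the signal limit, and correlations among these were -0.16 to 0.28.

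Bak1 encodes BAK, which sits in the outer mitochondrial membrane and forms pores there once activated. The control sham arrays gave 8.69, 8.68 and 8.64 and the control STZ arrays 8.59 and 8.68. The low protein sham arrays gave 8.50, 8.68 and 8.61 and the low protein STZ arrays 8.71, 8.71 and 8.51. The groups overlapped, and the whole range over 11 arrays was 0.21. The diet difference over both injections was -0.03 ± 0.06 (interval -0.16 to 0.10), and the STZ difference over both diets was 0.00 ± 0.06 (interval -0.13 to 0.13). Its other probe set was under the limit.

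Bad encodes a BH3-only protein that binds BCL2 and BCL-XL and is switched off by survival kinases. On 1416582_a_at the control sham arrays gave 12.11, 11.81 and 11.82 and the control STZ arrays 11.79 and 11.96. The low protein sham arrays gave 11.90, 11.59 and 11.70 and the low protein STZ arrays 11.46, 11.76 and 11.64. All low protein STZ arrays were below both control STZ arrays, as in 16.8% of all genes, and the sham groups overlapped. The diet difference over both injections was -0.22 ± 0.09 (interval -0.41 to -0.02, adjusted p of 0.271) and turned to 0.07 with cyclic loess. Within sham arrays the difference was -0.18 ± 0.12 and within STZ arrays -0.26 ± 0.13 (adjusted p of 0.632 and 0.581), turning to 0.06 and 0.08 with cyclic loess.

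A second Bad probe set, 1416583_at, gave 7.13, 7.05 and 7.27 on control sham, 7.61 and 7.30 on control STZ, 7.22, 7.31 and 7.22 on low protein sham and 7.18, 7.33 and 6.79 on low protein STZ arrays. Both control STZ arrays lay above all control sham arrays, as in 8.51% of all probe sets, and low protein STZ 3 was the lowest of all. Its diet difference in STZ-injected offspring was -0.35 ± 0.15 (unadjusted p of 0.0395, adjusted p of 0.562). Its STZ effect differed between the diets by -0.46 ± 0.20 (unadjusted p of 0.0451, adjusted p of 1.0). Without low protein STZ 3 these values were -0.20 and -0.30. Without control STZ 1 the first was -0.20, and the second shrank as well. The correlation of both Bad probe sets over the arrays was 0.11.

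Bid encodes the BH3-only protein that caspase-8 cleaves, linking death receptors to mitochondria. On 1417045_at, which had the higher mean, the control sham arrays gave 7.30, 7.34 and 7.17, the control STZ arrays 7.12 and 7.25, the low protein sham arrays 7.27, 7.27 and 7.20 and the low protein STZ arrays 7.59, 7.31 and 7.11. The groups overlapped. On 1448560_at the control sham arrays gave 6.93, 6.92 and 7.09, the control STZ arrays 7.27 and 7.18, the low protein sham arrays 7.27, 7.30 and 7.32 and the low protein STZ arrays 7.17, 7.33 and 7.32.

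On 1448560_at all 3 control sham arrays were below all 8 others, an arrangement found in 1.13% of the probe sets tested. All low protein sham arrays above all control sham arrays, which this includes, were found in 5.32%. Its difference was 0.32 ± 0.07 for diet in sham arrays (unadjusted p of 0.0015, adjusted p of 0.254) and 0.25 ± 0.08 for STZ in the control diet (unadjusted p of 0.0145, adjusted p of 1.0). These comparisons share the control sham arrays. The STZ effect differed between diets by -0.27 ± 0.11 (unadjusted p of 0.0364, adjusted p of 1.0), and the difference among the 4 groups had an adjusted p of 0.297. The signal was close to the limit of 6.87, and 1417045_at differed by -0.03 ± 0.11 for diet in sham arrays. The correlation of both Bid probe sets was -0.29, and the gene's STZ difference in the control diet was -0.09 on 1417045_at but 0.14 with its probe sets averaged.

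Bcl2l11 encodes BIM, which binds all pro-survival members and can engage BAX. On 1456005_a_at the control sham arrays gave 9.43, 9.35 and 9.26, the control STZ arrays 9.22 and 9.70, the low protein sham arrays 9.81, 9.52 and 9.27 and the low protein STZ arrays 9.46, 9.14 and 9.43. Low protein sham 1 and control STZ 3 were high, each standing apart from other arrays of its group. The diet difference over both injections was 0.03 ± 0.12 (interval -0.23 to 0.29) and the STZ difference over both diets was -0.04 ± 0.12 (interval -0.30 to 0.22). On the other probe sets above the limit, 1435448_at and 1456006_at, the diet difference was 0.01 ± 0.06 and 0.00 ± 0.06.

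Bbc3 encodes PUMA, a BH3-only protein induced by p53, and had 1 probe set. The control sham arrays gave 8.72, 8.75 and 8.72, the control STZ arrays 8.79 and 8.78, the low protein sham arrays 8.93, 8.72 and 8.72 and the low protein STZ arrays 8.61, 8.71 and 8.72. Both control STZ arrays were above all control sham arrays, as in 8.64% of all genes, while all low protein STZ arrays were below all low protein sham arrays, as in 5.14%. The margins were narrow, and the STZ difference was 0.05 ± 0.08 in the control diet and -0.11 ± 0.07 in the low protein diet (adjusted p of 0.999 and 1.0). The value in the low protein diet was -0.04 without low protein sham 1. Pmaip1 encodes NOXA, which targets MCL1. Its 1 probe set gave 4.97 to 5.05 over all arrays, under the limit, and it was not tested.

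**Figure D2:**
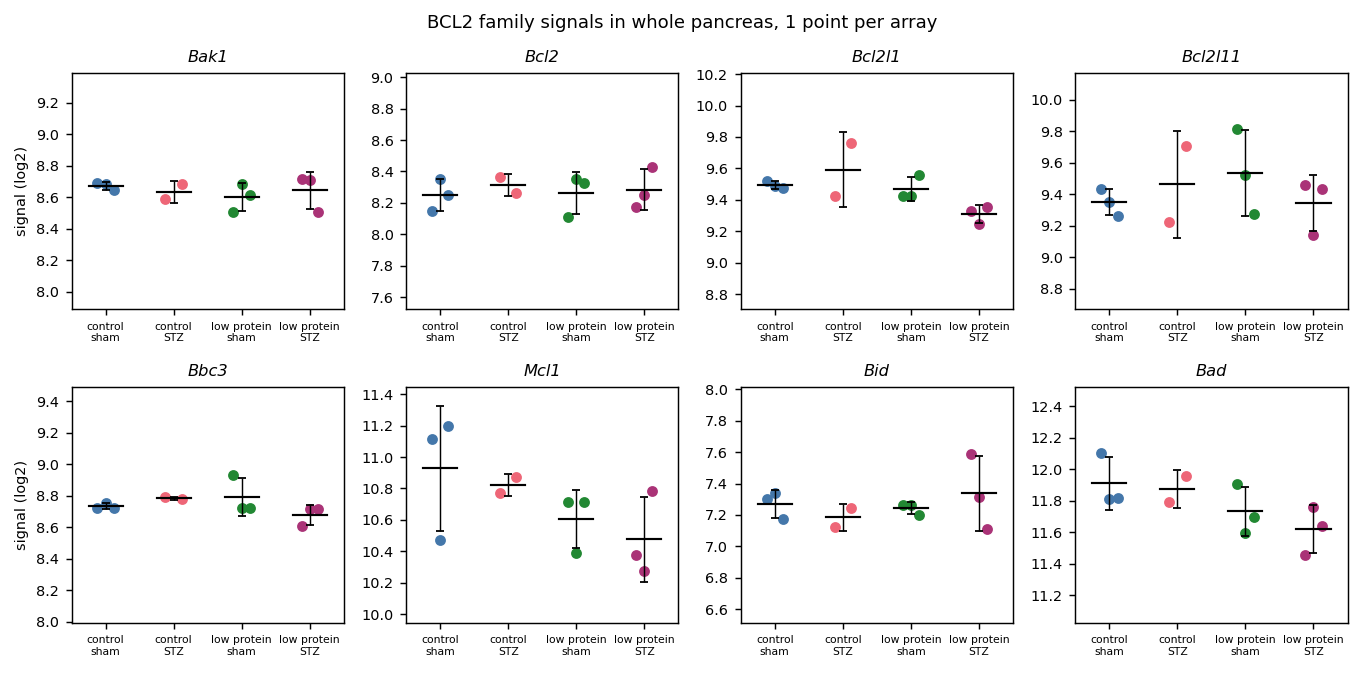
Log2 signal (vertical axis) of the probe set with the highest mean for each of the 8 genes tested, by group (horizontal axis); points are arrays, and bars give the mean and SD. Mcl1 and Bad lie lower in the low protein groups with overlapping points, and group means of Bcl2 lie between 8.25 and 8.31.

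Diet was the factor with more small p-values, within this family as over the array. For diet over both injections 3 of 8 genes had an unadjusted p under 0.05, all of them lower in the low protein groups, while 15.3% of all genes had one and 11.7% had one in that direction. The median difference was -0.03 for the 8 genes and -0.03 for all genes, and 6 of the 8 genes and 15 of the 21 probe sets were lower, against 62.2% of all genes and 62.3% of all probe sets. In sham arrays 0 of 8 genes had such a p, against 10.4% of all, and the smallest belonged to Mcl1 (-0.32 ± 0.19, adjusted p of 0.601) and Bad. The Mcl1 value was -0.55 without control sham 2, -0.19 without control sham 3 and -0.21 without low protein sham 2, and that of Bad was -0.08 without control sham 1 and -0.11 without low protein sham 2. In STZ arrays 1 of 8 had one, Bcl2l1, against 9.49%. Genes with all low protein STZ arrays below both control STZ arrays were Bad, Bbc3 and Bcl2l1, an arrangement met in 16.8% of all genes. At the level of probe sets, 3 of 21 had an unadjusted p under 0.05 in sham arrays, against 9.52% of all probe sets, and 2 of 21 in STZ arrays, against 8.49%. In STZ arrays 3 of 21 had all low protein arrays below both control arrays, against 15.6%.

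**Figure D3:**
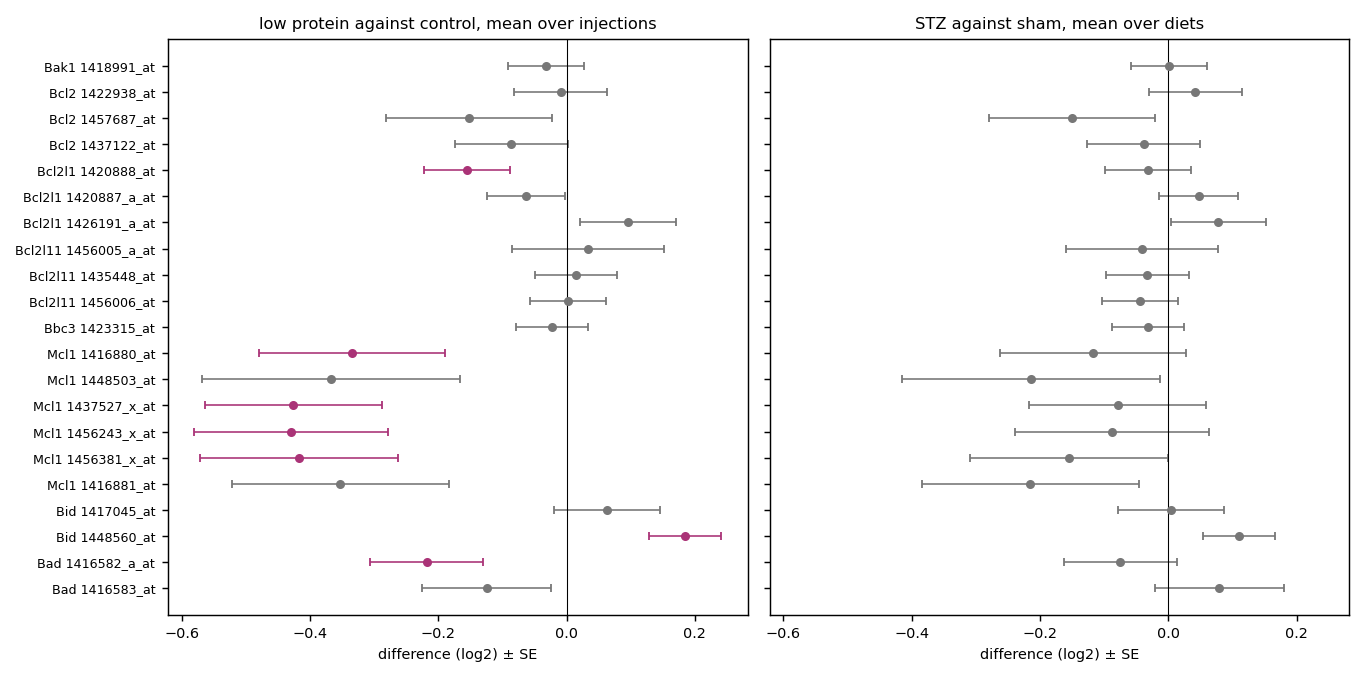
Log2 difference ± SE (horizontal axis) of the 21 probe sets above the signal limit, for low protein against control over both injections (left) and STZ against sham over both diets (right); purple marks an unadjusted p under 0.05 and grey the rest. On the left 7 probe sets are purple, 6 of them below 0 and the Bid probe set 1448560_at above; on the right 0 are.

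For STZ over both diets, the difference of each of the 8 genes was smaller than its SE. In this comparison 0 of 8 genes had an unadjusted p under 0.05, against 3.23% of all genes, and the smallest p belonged to Bad (-0.07 ± 0.09) and Mcl1 (-0.12 ± 0.14), both with an adjusted p of 0.999. The direction for Bad turned with array weights or averaged probe sets (0.0021 and 0.0023). The 95% intervals bounded the STZ difference at 1.35-fold for Mcl1, and at 1.23-fold or less for each of the other 7 genes, taken singly. In the control diet 0 of 8 had such a p, against 4.05%, with Bcl2l1 at 0.10 ± 0.10 and Bid at -0.09 ± 0.12 first by p. Of the 21 probe sets 1 had one in the control diet (Bid 1448560_at, against 4.04% of all probe sets), 0 in the low protein diet (2.33%) and 0 over both diets (3.1%). The sign for Bcl2l1 was negative without control STZ 3 (-0.07), and that for Bid was positive with averaged probe sets. In the low protein diet 0 of 8 had one, against 2.59%, with Bcl2l1 at -0.16 ± 0.09 and Bbc3 at -0.11 ± 0.07 first, and these were also the 2 of 21 probe sets with all STZ arrays below all sham arrays, against 4.79% of all.

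The STZ effect was then compared between the diets. Here 0 of 8 genes had an unadjusted p under 0.05, against 3.56% of all genes. Bcl2l1 had the smallest p, with a difference of -0.26 ± 0.13 (unadjusted p of 0.0804), followed by Bbc3 at -0.17 ± 0.11, both with an adjusted p of 1.0. The largest bound of a 95% interval was 1.77-fold, for Bcl2l11, so a difference of up to that size was not excluded for this gene. Without control STZ 3 the Bcl2l1 difference was -0.09 and without control STZ 1 it was -0.43, and without low protein sham 1 that of Bbc3 was -0.10. Among the 4 groups at once 0 of 8 had such a p, against 9.89%, and Bcl2l1 was first (F of 3.01, adjusted p of 0.574), followed by Bad (F of 2.51, adjusted p of 0.631). Of the 21 probe sets 2 had such a p for the difference of STZ effects (3.49% of all probe sets) and 1 among the 4 groups (8.57%), all of them described above for Bad and Bid.

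Genes around the family were read from 5 lists, none of which had a gene past the threshold in any comparison. Of 12 other BCL2 relatives tested, 1 was lower and 2 were higher at an unadjusted p under 0.05 for diet over both injections, with a median of -0.01. Over all genes 15.3% had such a p for diet, 11.7% in the lower direction, and the counts of the lists below stand beside these shares. Bik, a BH3-only protein of the endoplasmic reticulum, averaged 8.54 ± 0.09 in control sham, 8.70 ± 0.03 in control STZ, 8.84 ± 0.14 in low protein sham and 8.75 ± 0.05 in low protein STZ arrays, and differed by 0.18 ± 0.06 for diet (adjusted p of 0.218). Bcl2l10, a pro-survival relative, differed by 0.17 ± 0.06 (adjusted p of 0.215).

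Of 18 genes of the apoptosome, caspases and their inhibitors, 3 were lower and 0 higher at that p for diet (median -0.05). Birc2, which encodes the inhibitor of apoptosis protein cIAP1, gave 8.67, 8.89 and 8.60 on control sham arrays, above every one of the other 8 arrays (as in 2.36% of all genes), whose group means were 8.25, 8.21 and 8.26. Its difference among the 4 groups had an adjusted p of 0.208. Casp6, an executioner caspase, differed by -0.19 ± 0.08 for diet (adjusted p of 0.317).

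Of 8 death receptor genes tested, 0 were lower and 3 higher at that p for diet (median 0.07, against -0.03 for all genes). Fadd, the adaptor that joins death receptors to caspase-8, gave 9.63, 9.61 and 9.68 on control sham and 9.63 and 9.67 on control STZ arrays. It gave 9.91, 9.87 and 9.91 on low protein sham and 9.80, 9.80 and 9.95 on low protein STZ arrays. All 6 low protein arrays lay above all 5 control arrays, as in 0.679% of all genes, and the difference was 0.23 ± 0.05 (adjusted p of 0.0665). Fasl, the ligand of Fas, differed by 0.17 ± 0.07 (adjusted p of 0.273), at a signal close to the limit.

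Of 16 genes of p53 and its targets, 1 was lower and 0 higher for diet (median -0.09). This was Ccng1, encoding cyclin G1, at -0.54 ± 0.19 (adjusted p of 0.217), with low protein STZ 1 the lowest array at 9.87. Rrm2b, a ribonucleotide reductase subunit induced by p53, differed by -0.12 ± 0.06. Of 28 regulators and binding partners of BCL2 proteins, 7 were lower and 1 was higher (median -0.13). Atf4, a transcription factor of the integrated stress response, averaged 11.37 ± 0.17, 11.62 ± 0.14, 11.14 ± 0.08 and 11.09 ± 0.21 in the order of the groups above, a diet difference of -0.38 ± 0.09 (adjusted p of 0.0825). Bag6, a chaperone partner, differed by 0.20 ± 0.06 (adjusted p of 0.158).

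For STZ over both diets, where 3.23% of all genes had an unadjusted p under 0.05, the lists held 0 of 12 other relatives, 1 of 18 apoptosome genes (lower), 0 of 8 death receptor genes, 0 of 16 p53 genes and 1 of 28 regulators (higher), and list medians ran from -0.06 to 0.02.

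**Figure D4:**
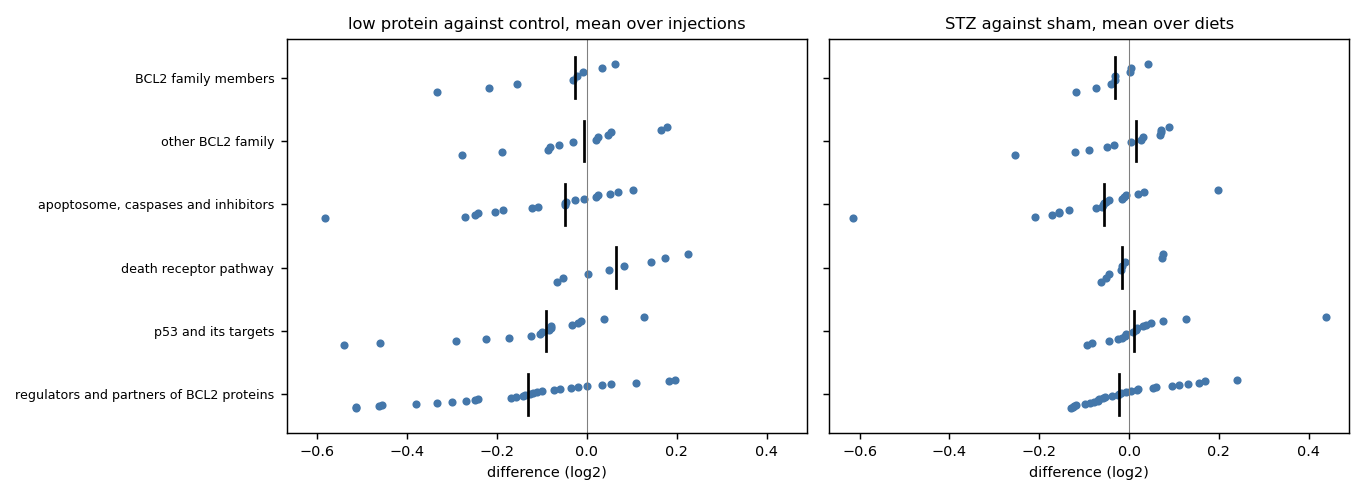
Log2 difference (horizontal axis) of each gene tested in the BCL2 family list and the 5 surrounding lists (vertical axis). Diet over both injections is on the left and STZ over both diets on the right. Dots are genes and black lines are list medians. For diet the death receptor list has its median above 0 (0.07) and the regulators have theirs lowest (-0.13), and for STZ medians lie near 0.

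Markers of several tissue compartments, though not of T cells or myeloid cells, were lower in the low protein groups on average, as Mcl1, Bad and Bcl2l1 were (Bad not with cyclic loess). The mean level of the acinar list (9 of 12 genes with a probe set) was 14.80 to 14.92 on control sham, 14.74 to 14.76 on control STZ, 14.37 to 14.48 on low protein sham and 14.01 to 14.64 on low protein STZ arrays. All 9 acinar genes tested were lower in the low protein groups, 8 of them at an unadjusted p under 0.05, with 0 past the threshold. Over all genes 15.3% had such a p for diet over both injections, 62.2% were lower and the median was -0.03. The endothelial list was 8.42 to 8.49, 8.36 to 8.43, 8.04 to 8.31 and 8.13 to 8.28 in the same order, with 8 of 8 genes lower. For diet over both injections, 5 of 5 markers of other islet cells (median -0.475), 8 of 8 of stroma (-0.13), 6 of 7 of β cells (-0.11) and 4 of 5 of duct (-0.11) were lower too. Of T cell markers 3 of 4 were higher (median 0.17), of macrophage and myeloid markers 3 of 6 (0.04) and of B cell markers 2 of 6 (-0.03), and of 2 adipocyte genes 1 was lower. For some lists the counts and medians were not alike in sham and STZ arrays. Of all genes 57.7% were lower in sham arrays (median -0.02) and 62.3% in STZ arrays (-0.04). Of β-cell markers 6 of 7 were lower in sham arrays (median -0.24) and 3 of 7 in STZ arrays (0.03). Of duct markers 2 of 5 were lower in sham arrays (0.06) and 4 of 5 in STZ arrays (-0.19). Medians in sham and STZ arrays were -0.80 and -0.09 for other islet cells, and -0.28 and -0.12 for stroma. This contrast between injections equals the difference of STZ effects between diets. For it an unadjusted p under 0.05 was met by 3 of 7 β-cell, 1 of 5 other islet cell, 0 of 5 duct and 0 of 8 stroma markers. Over all genes the share was 3.56%, and no marker of these lists passed the threshold. No marker of the acinar or endothelial list was at or under the signal limit, and the part of these lists in the diet differences of Mcl1, Bad and Bcl2l1 was not tested.

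The gene most like each of the 3 members with the highest mean signal was sought by Pearson's r among 15889 genes over the 11 arrays. For Mcl1 it was Sirt1 (r = 0.98, Spearman's rho = 0.99, and 0.96 without the 2 arrays farthest from the median). For Bad it was Emc10 (0.95, 0.90 and 0.85), and for Bcl2l1 it was Epb41l1 (0.92, 0.87 and 0.75). Each is the highest of all values computed and is given as a description. Among the 8 genes themselves the highest correlation was between Mcl1 and Bad (0.63) and the lowest between Bak1 and Bbc3 (-0.61).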

How the data were processed

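The values used here are log2 signals per probe set deposited by the authors. Per the submitters' processing notes the tools were RMA and Partek 6.5, with no role or order given. What build and what test the authors used is not given in the sources used here. No further scaling was applied, and 0 columns of per-sample values were left unused. Symbols came from the platform table: 34958 probe sets carried 1 symbol, 932 several and 9211 none, and only the first kind was used. For each of 18194 genes the probe set of highest mean stood for the gene, and 15897 genes above the 0.25 quantile of probe set means (6.866) were tested.

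With limma 3.58.1 in R 4.3.3, 4 group means were fitted to all 11 arrays (lmFit, eBayes, two-sided), with Benjamini-Hochberg adjustment over all genes and a threshold of 0.05. The same fit was run over 27249 probe sets. Tables were made in Python 3.11.15. On simulated data the fit recovered 97% of 100 genes changed 2-fold for diet over both injections and 71% for the difference of STZ effects. At a log2 change of 0.585 these values were 87% and 27%, and 56% to 65% within a single diet or injection. The differences of the 8 genes were 0.35 or smaller, a size not simulated. The simulated noise was independent between genes, unlike that of the arrays. The members and lists were chosen with earlier results of these data known. Differences are printed for members with an unadjusted p under 0.05, or else the 2 with the smallest p; each list names the 2 genes with the smallest p of the F test. Intervals are for single genes. A planned difference of Bax and Bcl2 was not computed.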

Additional observations from a re-analysis of the deposited data

Results flagged for a closer look

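The STZ effect on Bbc3 (PUMA, probe set 1423315_at) pointed in opposite ways in the diets. Both control STZ arrays (8.79 and 8.78) lay above all control sham arrays (8.72, 8.75 and 8.72), as in 8.64% of all genes. All low protein STZ arrays (8.61, 8.71 and 8.72) lay below all low protein sham arrays (8.93, 8.72 and 8.72), as in 5.14%. The margin in the low protein diet was narrow, with 8.7184 on low protein STZ 3 against 8.7229 on low protein sham 2 and 3. The difference of the effects was -0.17 ± 0.11 (limma, unadjusted p of 0.167, adjusted p of 1.0), so the test did not pass. On this probe set 3 arrays share 1 value to the last decimal. Without low protein sham 1 the difference was -0.10. The groups, of 2 or 3 arrays, were too small for a test of a single outlying array.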

How the results depend on the processing

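No listed probe set passed in any of 20 alternatives. Over all genes, 0 passed in the fit reported (2438 at an unadjusted p under 0.05 for diet over both injections, with limma). With array weights 7 passed for diet in sham arrays and 796 for diet over both injections, where 1 death receptor gene (Fadd) and 2 regulators (Atf4, Vdac2) passed. Without control sham 1 and low protein STZ 1, chosen after seeing the data, 56 and 86 passed. With each array left out in turn, 0 to 1 passed for STZ in the control diet (1 without control sham 2), 0 to 126 for diet in sham arrays (126 without low protein STZ 1; 8, 3 and 1 without control sham 3, 2 and 1), 0 to 1 for diet in STZ arrays (1 without low protein STZ 3) and 0 to 6 among the 4 groups (6 without low protein STZ 1, 5 and 1 without control sham 2 and 3). For diet over both injections it was 0 to 460 (460, 161 and 89 without low protein STZ 3, 1 and 2; 102 and 5 without control sham 2 and 3), and 0 to 2 of the regulators. The cause was not tested. Signs turned for Bad with cyclic loess (0.0572 in sham arrays, 0.0769 in STZ arrays, 0.067 over both, as for its probe set 1416582_a_at) and, for STZ over both diets, with array weights (0.0021), averaged probe sets (0.0023) or both named arrays left out (0.0142); for Bid with averaged probe sets (0.14, STZ in the control diet); and for Bcl2l1 without control STZ 3 (-0.0705, STZ in the control diet, where leaving out single arrays gave -0.0705 to 0.2667). The 3 members with an unadjusted p under 0.05 for diet became 0 with cyclic loess, without both named arrays, and without control sham 1, control STZ 3, low protein sham 2 or low protein STZ 1. The Mcl1 diet difference ran from -0.46 to -0.18 (adjusted p from 0.0503 to 0.604). With the replicate number as a block it was -0.26 (adjusted p of 0.234) and 0 genes passed in any comparison. Arrays of the same number had correlations of deviations from group means of -0.3203 to 0.2569, and arrays of different numbers of -0.4549 to 0.3866. With 2 or 3 arrays in a group these deviations depend on each other, so they cannot decide whether the numbers mark a pairing.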

Other observations

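Some signals recur to the last decimal on different arrays. Of all 45101 probe sets, 55.8% had an equal value on at least 2 of the 11 arrays, and so did 16 of the 29 probe sets of the BCL2 family (55.2%). Pmaip1 had the same value on 5 arrays, and so did the Bcl2l1 probe set 1426191_a_at. The Bcl2 probe set 1437122_at, the Bcl2l1 probe set 1426050_at and the Bcl2l11 probe set 1456006_at had one value on 4. The only Bbc3 probe set, the Bcl2l11 probe set 1426334_a_at and the Bcl2l1 probe set 1420888_at had one on 3. The last stood for Bcl2l1, and its shared value (9.42) was on control STZ 1, low protein sham 1 and low protein sham 2. None of the 6 Mcl1 probe sets had an equal value. On the control sham arrays all 3 values of Pmaip1 were equal, so its SD there was 0.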
